A study of Mus musculus with 47 samples.

Results

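The genes described here encode 8 receptors for noradrenaline, adrenaline and dopamine: Adra1a, Adra1b, Adra1d, Adra2a, Adra2c, Adrb1, Drd1 and Drd2. They were chosen by name, with earlier results of these data known, as 8 of the 22800 gene symbols of the count table. They were followed in 26 of its 47 cells, namely 10 cells of the auditory cortex (AC), 13 of hippocampal CA3 and 3 of hippocampal CA1. The cells were neuropeptide Y (NPY)-positive GABAergic neurons of mice, male and female and 3 to 8 weeks old, that carried a green fluorescent protein driven by Npy regulatory sequences. The strain is written NPY-EGFP in the design text and NPY-hrGFP in the study's methods. AC cells lay in layers L1 to L2 of coronal slices and CA3 cells in stratum lacunosum-moleculare, with hippocampal slices cut horizontally, so region and slice plane cannot be told apart, and the layer of the CA1 cells is not given in the sources used here. Cytosol was drawn into the patch pipette, and polyadenylated RNA was amplified and sequenced. Each library is 1 cell. The design counts 8 mice, but no label says which mouse gave which cell, so each region is 1 sample, and no test between regions was possible. SDs are over cells and describe only their spread.

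Noradrenaline and dopamine act on receptors that couple to G proteins. The beta-type adrenergic receptors and the Drd1 receptor couple to Gs and raise cyclic AMP. The Adra2 family and the Drd2 receptor couple to Gi and lower it, and the Adra1 family couples to Gq, which activates phospholipase C and releases calcium from stores. In cortex and hippocampus the transmitters come from axons of brainstem and midbrain neurons, so that a local interneuron can carry the receptors without making the transmitter.

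Reads of these genes were concentrated in few receptors. Adrb1, the beta-type receptor, was read in 18 of 26 cells and in all 3 regions. Drd1 had reads in AC (5 of 10 cells) and CA1 (2 of 3), but not in CA3 (0 of 13). Adra1a was read in 6 cells, and Adra1b in 2 AC cells at a high level. Adra1d and Adra2c were found at 1 and 2 reads in 1 cell each, and Adra2a and Drd2 had no read in any of the 26 cells. For background, 11.8% of all symbols were read in at least 18 of the 26 cells, 36.3% in at least 7 and 52.3% in at most 2, and 1, 2 and 5 of the 8 receptor genes fell in these classes.

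The cells held 1715012 to 6265431 counted reads in AC, 2229519 to 7949918 in CA3 and 601781 to 3202430 in CA1, with 3163 to 6288, 3679 to 8149 and 4367 to 6095 genes read per cell. All 26 cells had reads on 4 or 5 of 5 GABAergic markers, Gad1, Gad2, Slc32a1 and Npy among them, whose summed level ran from 4928 to 31110 CPM (counts per 1000000 counted reads). Levels below are log2 of the count divided by a size factor for the cell, plus 1, and a region's level is their mean over cells. The level of the 6597 genes read in at least 10 cells was shifted by a median of -0.87 in AC against CA3, by -0.46 in AC against CA1 and by 0.43 in CA3 against CA1, and differences are also given relative to this shift where it matters. Marker lists of other cell types were not absent. Each summed to at most 3707 CPM in a cell, below the lowest GABAergic sum of 4928 CPM, and the microglial list was not low in every cell. The summed level of 6 astrocyte markers was 0.246 to 1210 CPM in AC, 0 to 660 CPM in CA3 and 117 to 1167 CPM in CA1, with Aqp4 at 0 in all 26 cells. Single markers differed by region. Slc1a3 had 5143 reads in 6 AC cells, 445 in 2 CA1 cells and 1 in CA3, and Gja1 and Gfap were read in AC and CA1 but not in CA3, where N39 held 79.1% of the reads of Slc1a2. The summed level of 5 microglial markers was 0 to 3707 CPM in AC, 0 to 1864 CPM in CA3 and 0 to 195.1 CPM in CA1. The highest values were 955 CPM for 5 oligodendrocyte markers, 204 CPM for 5 pyramidal cell markers and 33.7 CPM for 4 endothelial markers, all in CA3 cells.

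The sequences upstream of the most widely read gene, Adrb1, and of the gene that differed most between regions, Drd1, are shown because most results turn on this pair. They are the 250 bases before the RefSeq transcription start on GRCm38.p6, read on the strand of the gene. Capitals mark a GC box (GGGCGG or CCGCCC on the printed strand, that is, either strand of the site). TATAAA and TGACGTCA, the latter the cyclic AMP response element, were searched for on both strands as well. The window of Adrb1 is chr19:56721867-56722116 on the plus strand, and that of the upstream Drd1 start is chr13:54055659-54055908 on the minus strand.
Adrb1: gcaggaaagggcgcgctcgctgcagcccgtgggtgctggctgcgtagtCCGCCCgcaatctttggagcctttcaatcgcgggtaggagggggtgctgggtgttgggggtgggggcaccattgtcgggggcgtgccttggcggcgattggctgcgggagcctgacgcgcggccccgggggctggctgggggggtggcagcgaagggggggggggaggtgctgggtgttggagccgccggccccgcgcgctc
Drd1: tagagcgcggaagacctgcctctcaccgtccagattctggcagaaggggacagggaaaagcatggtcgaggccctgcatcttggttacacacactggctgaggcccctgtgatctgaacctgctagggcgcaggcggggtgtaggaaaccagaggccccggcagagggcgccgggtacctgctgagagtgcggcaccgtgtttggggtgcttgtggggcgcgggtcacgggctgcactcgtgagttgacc
The Adrb1 window had a GC content of 74.0% and held 1 GC box. The Drd1 window had a GC content of 64.0% and held none of the 3 motifs, whereas the window of a downstream Drd1 start (chr13:54054781-54055030, GC content 60.8%) held 1 GC box. Over all 32851 RefSeq promoter windows of this length, 32.7% held a GC box, 12.4% a TATAAA and 1.55% a TGACGTCA, so a GC box in a window is common. RefSeq windows were found for 6 of the 8 genes (all but Adra1a and Adra1d).

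Drd1, the Gs-coupled dopamine receptor, had the highest summed level of the 8 genes in AC and no read in CA3. The gene (ENSMUSG00000021478) lies on chr13:54051183-54055705, minus strand (GRCm38), with 3628 bases of exon. In AC, N42 had 2429 reads (633 CPM), N44 had 1221 (370 CPM), N8 had 581 (92.7 CPM), N4 had 450 (262 CPM) and N5 had 448 (237 CPM). The other 5 AC cells (N3X, N41, N43, N46 and N7) had 0. AC cells thus fell apart into cells with at least 448 reads and cells with none, with nothing in between. All 13 CA3 cells had 0 reads, although each was sequenced to at least 2229519 reads. In CA1, N6 had 174 reads (141 CPM), N1 had 1 read and N2X had 0.

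Over all reads of a region, Drd1 reached 151 CPM in AC (95% Poisson interval 146.5 to 155 CPM) and 34.8 CPM in CA1 (29.8 to 40.3 CPM). In CA3, 0 reads among 48858038 put the pooled level at no more than 0.0614 CPM, the level of 3 reads. Set against that limit, the summed level of Drd1 was 2453-fold higher in AC and 566-fold higher in CA1. The limit covers counting error of pooled, amplified reads only and bounds no single cell. AC cells without a Drd1 read held up to 4370881 reads. Without N42 the first of these folds was 1455. The second rests on N6, without which CA1 had 1 Drd1 read among 3804211. The shares of cells with a read were 50% in AC (exact binomial interval 18.7 to 81.3%), 0% in CA3 (0 to 24.7%) and 66.7% in CA1 (9.43 to 99.2%). These intervals, like all others here, cover counting error only. The mean level was 4.95 ± 5.27 (SD, n = 10 cells) in AC, 3.86 ± 4.49 in CA1 (n = 3 cells) and 0 in CA3. AC and CA1, the neighbours in this order, differed by 1.09, less than the SD of either, and the difference of 4.95 between AC and CA3 was also less than the SD of the AC cells. The CA1 mean includes N1, where 1 read among 601781 gave a level of 2.78.

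A pattern of at least 5 AC cells with a read and 0 of 13 CA3 cells was shared by 8 of 22800 symbols (0.0351%). Its cut-offs are the counts of Drd1 itself, so the share is a description only. At least 5 of 13 CA3 cells and 0 of 10 AC cells were found for 159 symbols (0.697%). That demand is weaker, with a smaller share of cells read and fewer cells at 0, so the shares are not like for like. AC cells with a Drd1 read held 1715012 to 6265431 reads in all, and those without held 2253229 to 4370881. Some markers of other cell types were higher in AC than in CA3, as Drd1 was, and others were not. The astrocyte marker Slc1a3 was 4.40 higher in AC than in CA3 (151 against 0.0205 CPM), the microglial marker Cx3cr1 was 3.05 higher (180 against 0.143 CPM), and Gja1 had 46.4 CPM in AC, nearly all in N46, and 0 in CA3. The microglial marker C1qb was 2.86 higher in AC. The other markers of these lists, Aqp4, Aldh1l1, Gfap, Slc1a2, C1qa, Csf1r and P2ry12, differed by less than 1 in mean level. Their summed levels could still differ. Csf1r had 419 CPM in AC against 26.1 in CA3, C1qa 89.6 against 41.3, Gfap 9.05 against 0 and Aldh1l1 0.147 against 0. Slc1a2 had 38.4 CPM against 135.6, P2ry12 10.6 against 17.95, and Aqp4 had 0 in both. The pyramidal cell marker Slc17a7 was 1.39 higher in AC, and the oligodendrocyte marker Mbp was at -3.02. Within AC, Slc1a3 was read in 2 of the 5 cells with Drd1 and in 4 of the 5 without it, and Cx3cr1 in 1 and 2 cells. Slc1a2 and C1qb were each read in 4 and 2 cells, and C1qa in 3 and 2. Gfap and P2ry12 were each read in 1 and 0, Aldh1l1 in 0 and 1, and Gja1 in 1 and 1. Csf1r was read in 2 and 2, with 9909 reads in the cells with Drd1 and 4347 in those without. The astrocyte marker sum was 0.303 to 1210 CPM in the AC cells with Drd1 and 0.246 to 1089 CPM in those without. The microglial sum was highest in N42 (3707 CPM), which also held 47.4% of the Drd1 reads of AC, and next highest in N46 (2740 CPM), which held none. The part of such RNA in the regional difference of Drd1 was not tested. The difference of 4.95 between AC and CA3 ran from 4.22 without N42 to 5.50 as single cells were left out. The labels place 9 more cells in AC and 8 more in CA3 beside the 26. Of these, 5 in AC and 7 in CA3 had no Npy read, with only 40934 to 595759 and 111958 to 408585 reads in all, and 3 of those 7 CA3 cells had over 10000 CPM of astrocyte markers and another 3 of oligodendrocyte markers. With all labelled cells, scaled by library size, 5 of 19 AC cells held Drd1 reads, none of 21 in CA3 did, and AC exceeded CA3 by 2.58. With only the labelled cells that had an Npy read, 14 in each region, it was 3.50, and with the 26 cells scaled by library size it was 4.91.

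**Figure D1:**
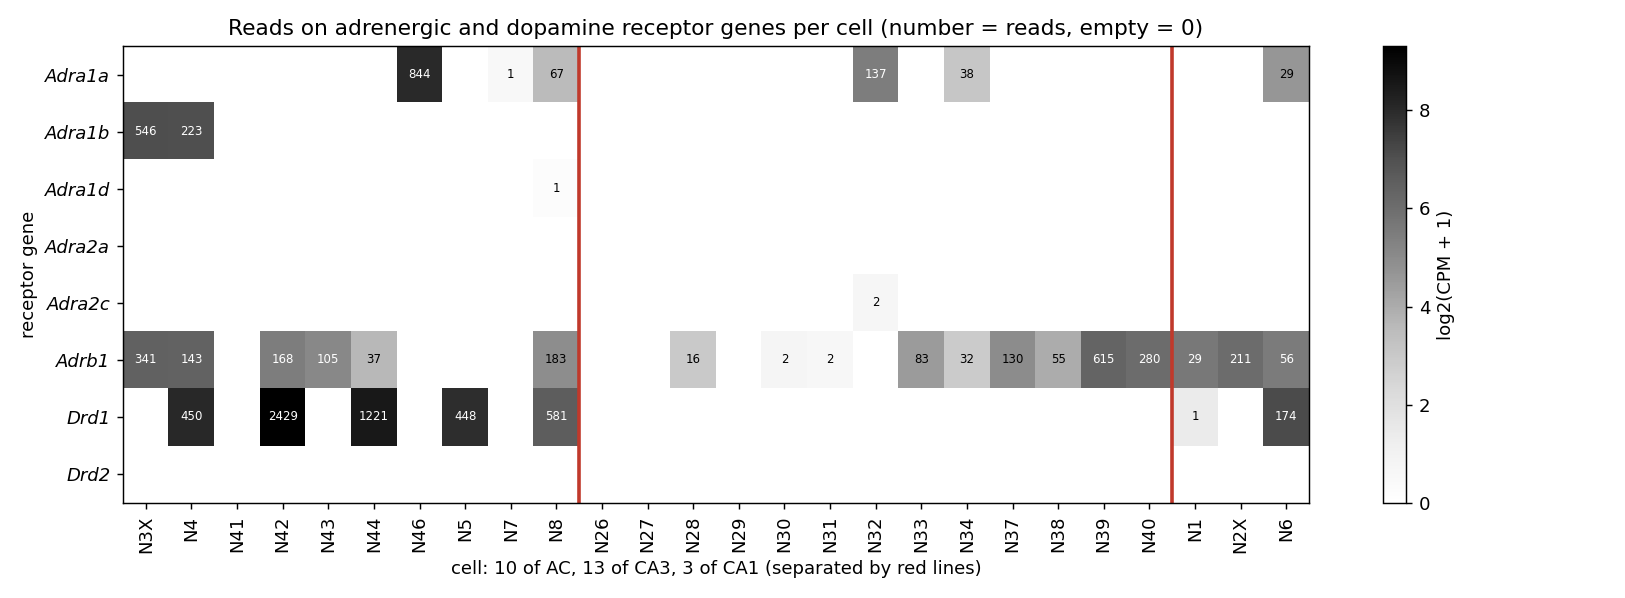
Level of the 8 receptor genes (rows) in each of the 26 cells (columns, grouped as AC, CA3 and CA1), with shade for log2(CPM + 1) and the number of reads written in each filled square. The Drd1 row is filled in 5 AC and 2 CA1 cells and empty in all 13 CA3 cells, the Adrb1 row is filled in 18 cells, and the Adra2a and Drd2 rows are empty.

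Adrb1, the Gs-coupled beta-type receptor for noradrenaline, was read in most cells of every region at a moderate level. The gene (ENSMUSG00000035283) lies on chr19:56722199-56733113, plus strand, with 3382 bases of exon. In AC, N3X had 341 reads (84.1 CPM), N4 had 143 (83.4 CPM), N8 had 183 (29.2 CPM), N42 had 168 (43.8 CPM), N43 had 105 (33.6 CPM) and N44 had 37 (11.2 CPM), and N41, N46, N5 and N7 had 0. The CA3 cells were more graded. N39 had 615 reads (77.4 CPM) and N40 had 280 (65.1 CPM), followed by N37 with 130, N33 with 83, N38 with 55, N34 with 32 and N28 with 16. N30 and N31 had 2 reads each, and N26, N27, N29 and N32 had 0. All 3 CA1 cells were positive, with 29 reads in N1 (48.2 CPM), 211 in N2X (65.9 CPM) and 56 in N6 (45.5 CPM). The per-cell CPM values of CA1 lay within the range of both other regions.

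The shares of cells with an Adrb1 read were 60.0% in AC (26.2 to 87.8%), 69.2% in CA3 (38.6 to 90.9%) and 100% in CA1 (29.2 to 100%), with overlapping intervals. Summed levels were 28.7 CPM in AC (26.9 to 30.5 CPM), 24.9 CPM in CA3 (23.5 to 26.3 CPM) and 58.8 CPM in CA1 (52.3 to 65.9 CPM), so that AC exceeded CA3 by 1.15-fold. That fold was 1.96 without CA3 cell N39 and 0.852 without AC cell N3X. In mean level the order was CA1 (7.47 ± 0.33, SD, n = 3 cells), AC (4.26 ± 3.75, n = 10 cells) and CA3 (3.58 ± 3.12, n = 13 cells). AC and CA3 differed by 0.69, less than either SD. CA1 exceeded AC by 3.21, less than the SD of AC and more than that of CA1, and exceeded CA3 by 3.90, more than the SD of either. In CA3 the N39 cell, the deepest of all 26 with 7949918 reads, held 50.6% of the Adrb1 reads. The 4 CA3 cells without Adrb1 had 2229519 to 3166810 reads in all, at the low end of the range of 2372578 to 7949918 for those with it. The rank correlation of Adrb1 level with total reads was 0.74 over the 13 CA3 cells and 0.01 over the 10 AC cells. It is a description, since level and total come from the same library. After each cell was thinned to 601781 reads, the total of the shallowest cell, 6 AC, 8 CA3 and 3 CA1 cells kept an Adrb1 read. The difference of 0.69 ran from 0.26 without N4 to 1.16 as single cells were left out. With the labelled cells that had an Npy read it was 2.34, and with all labelled cells 1.46, both scaled by library size, against 0.63 for the 26 cells on that scale. Both of these sets add AC cells N45, N47, N48 and N51, with 72, 1666, 3485 and 1006 Adrb1 reads. N47, N48 and N51 had only 1719, 1814 and 1565 genes read, fewer than any of the 26, and N48 had no Gad1 read.

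The genes whose levels ran most like Adrb1 over the 26 cells, among 7702 genes read in at least 8 of them, were Xpot, the exportin of transfer RNAs, with a Spearman correlation of 0.72, Phactr3, a regulator of protein phosphatase and actin, with 0.65, and Camta2, a calmodulin-binding transcription activator, with 0.63. The correlations within AC were 0.75, 0.61 and 0.54, and within CA3 they were 0.60, 0.49 and 0.61. They were picked as the highest of many and are descriptions. No other receptor gene was read in 8 cells.

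Drd1 and Adrb1 overlapped in part. Both were read in 4 AC cells (N4, N8, N42 and N44), Drd1 alone in N5, Adrb1 alone in N3X and N43, and neither in N41, N46 and N7. In CA1 both were read in N1 and N6 and Adrb1 alone in N2X. In CA3, Adrb1 was read without Drd1 in 9 cells, and neither was read in 4. Of the 7 AC cells with a read of Ndnf, a marker of neurogliaform cells, 3 had Drd1 and 4 had Adrb1, and of the 3 without it 2 had each. Of the 10 CA3 cells with a read of Nos1, the neuronal nitric oxide synthase, 8 had Adrb1, as had 1 of the 3 without. In CA3, 9 of the 12 cells with Lhx6, a marker of the medial ganglionic eminence lineage, had Adrb1, and the 1 cell without Lhx6 did not.

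**Figure D2:**
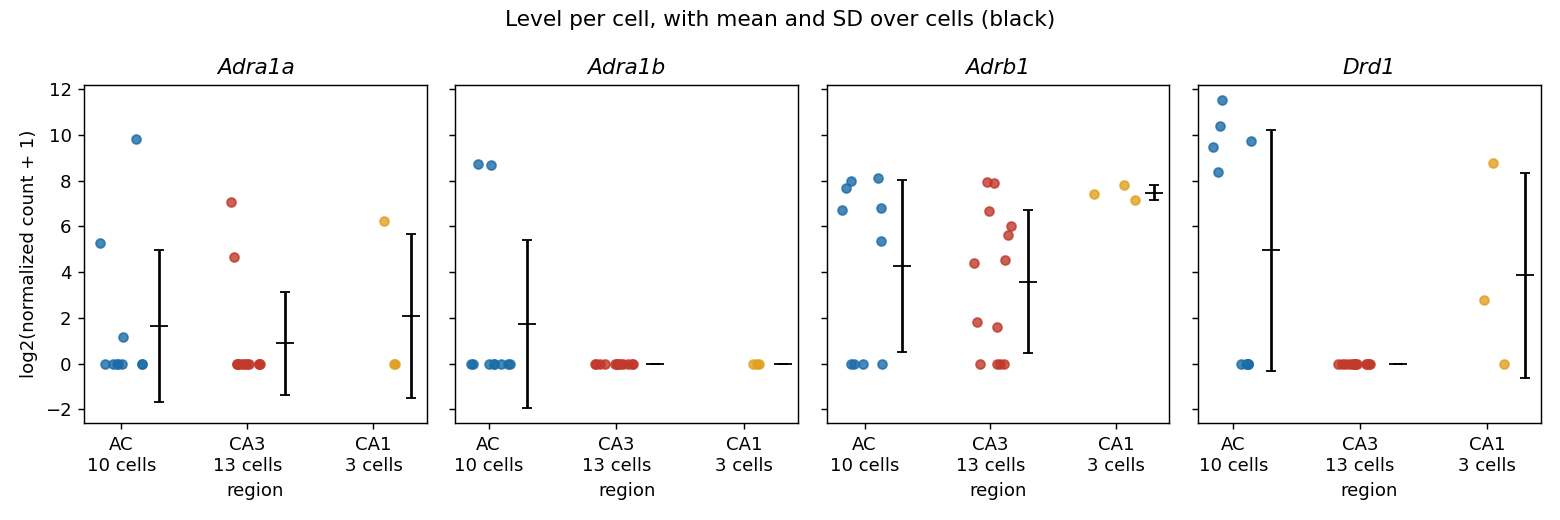
Level of Adra1a, Adra1b, Adrb1 and Drd1 in each cell (points, log2 of the scaled count plus 1) by region, with the mean (dash) and SD over cells (bar); a bar that reaches below 0 shows only the size of the SD. Drd1 points split into cells at 0 and cells above 8 in AC and lie at 0 in all 13 CA3 cells, whereas Adrb1 points of AC and CA3 overlap.

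The Gq-coupled genes were read in fewer cells. Adra1a (ENSMUSG00000045875, chr14:66635251-66771168, plus strand, 8728 bases of exon) had 844 reads in AC cell N46 (260 CPM), 67 in N8 (10.7 CPM) and 1 in N7. In CA3 it had 137 reads in N32 (43.8 CPM) and 38 in N34 (7.61 CPM), and in CA1 it had 29 in N6 (23.6 CPM). N46 alone held 92.5% of the AC reads. The shares of cells were 30% in AC (6.67 to 65.2%), 15.4% in CA3 (1.92 to 45.4%) and 1 of 3 in CA1. The summed level was 26.8 CPM in AC (25.1 to 28.6 CPM), 3.58 CPM in CA3 (3.07 to 4.15 CPM) and 5.76 CPM in CA1 (3.86 to 8.27 CPM). In mean level CA1 (2.07 ± 3.59), AC (1.63 ± 3.32) and CA3 (0.90 ± 2.25) followed each other by less than their SDs over cells. AC exceeded CA3 by 0.73, and without N46 the sign turned, to -0.18. With a pseudocount of 0.1 in place of 1 it was 1.14. N46 also had a microglial marker sum of 2740 CPM and an astrocyte sum of 1089 CPM, and their part in its Adra1a reads was not tested.

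Adra1b (ENSMUSG00000050541, chr11:43774606-43901210, minus strand, 3382 bases of exon) was read in AC cells N3X (546 reads, 135 CPM) and N4 (223 reads, 130 CPM), and in no other of the 26 cells. The pair of cells had nearly the same level, and both also held the highest Adrb1 levels of AC in CPM. Over AC as a whole Adra1b reached 22.6 CPM (21.0 to 24.2 CPM) in 20.0% of cells (2.52 to 55.6%). Its summed level in AC was 368-fold the 3-read limit of CA3, and 121-fold without N3X. That limit again covers counting error of pooled reads only. The mean level was 1.74 ± 3.67 (SD, n = 10 cells) in AC and 0 elsewhere. The difference of 1.74 fell below 1 when either cell was left out, to 0.97 without N3X and 0.96 without N4, was 0.92 over all labelled cells and 1.25 over those with an Npy read, and was 1.08 with a pseudocount of 10. The 0 of 13 CA3 cells allow a share of up to 24.7%. Adra1d (ENSMUSG00000027335, chr2:131545850-131562283, minus strand) had 1 read, in AC cell N8. Its exons overlap those of Gm14285 on the opposite strand, and whether counting used the strand is not given in the sources used here.

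The Gi-coupled genes were at or near 0. Adra2a (ENSMUSG00000033717, chr19:54044151-54048982, plus strand) and Drd2 (ENSMUSG00000032259, chr9:49340627-49408177, plus strand) had 0 reads in all 26 cells. By counting error of pooled reads alone, that allows up to 0.0881 CPM in AC, 0.0614 CPM in CA3 and 0.596 CPM in CA1. Adra2c (ENSMUSG00000045318, chr5:35278319-35281763, plus strand) had 2 reads in CA3 cell N32 and 0 elsewhere. Among the further labelled cells, Adra2a had 1 read, in a dentate gyrus cell. By coupling, the Gs receptors Adrb1 and Drd1 took 80.5% of the 9680 receptor reads of the 26 cells, with 78.4% in AC, 87.3% in CA3 and 94.2% in CA1. The Adra1 genes took 21.6%, 12.6% and 5.80%, which single cells carried. Their share was 12.1% in AC without N46, 3.03% in CA3 without N32 and 0% in CA1 without N6, and the Gi receptors took 2 reads in all.

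Of the 80 pairs of a gene and an AC cell, 17 had a read (21.25%), against 12 of 104 in CA3 (11.5%) and 6 of 24 in CA1 (25%). Over all 22800 symbols the shares were 20.9%, 25.7% and 22.53%. At least 1 was read in 9 of 10 AC, 10 of 13 CA3 and 3 of 3 CA1 cells, and at least 2 in 5, 2 and 2 cells. N8 had the most, with Adra1a, Adra1d, Adrb1 and Drd1. N41 in AC and N26, N27 and N29 in CA3 had none. The 8 genes together took 229 CPM in AC, 28.5 CPM in CA3 and 99.3 CPM in CA1.

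Between AC and CA3, the levels of 2 of the 6 receptor genes with a read in either region (Adra1b and Drd1) were at least 1 higher in AC, and those of 0 at least 1 higher in CA3. Over all 13624 genes with a read, 13.6% were at least 1 higher in AC and 32.8% at least 1 higher in CA3. The median difference of the 6 was 0.71, or 1.57 relative to the shift of all common genes. Relative to that shift Drd1 was 5.82, Adra1b 2.61, Adra1a 1.59 and Adrb1 1.55 higher in AC. The step adds 0.87 to every gene whatever its reads, so that Adra2a and Drd2, with 0 reads, also came to 0.87. Without it Adra1a (0.73) and Adrb1 (0.69) stayed below 1. Against CA1, AC had 2 receptor genes at least 1 higher (Adra1b, by 1.74, and Drd1, by 1.09), where 25.4% of 12209 genes were, and 1 at least 1 lower (Adrb1, by 3.21), where 35.4% were. CA1 had 3 receptor genes at least 1 higher than CA3 (Adrb1 by 3.90, Drd1 by 3.86 and Adra1a by 1.17), where 25.9% of 13004 genes were, and 0 at least 1 lower, where 33.2% were. The 3 contrasts share cells and CA1 has only 3, so their counts are not independent. Without N6 the CA1 cells kept 3 of their 6 pairs of a gene and a cell.

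**Figure D3:**
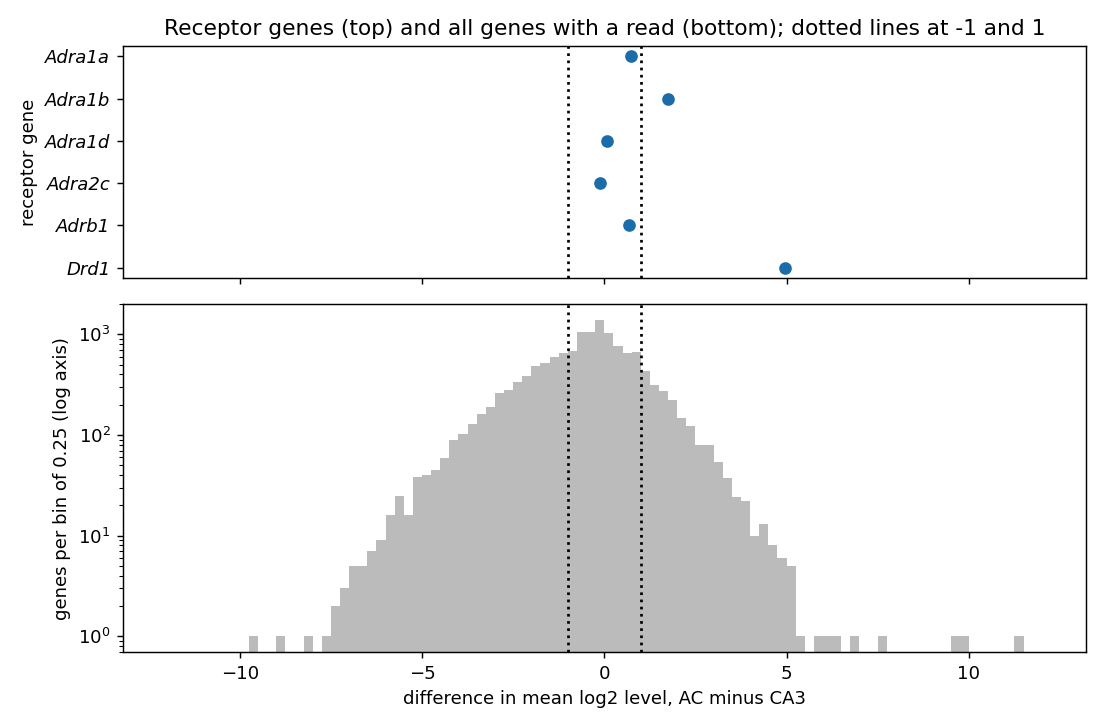
AC minus CA3 difference in mean level (log2 scale) of the 6 receptor genes with a read in either region (top, 1 row per gene) and of all 13624 genes with a read (bottom, histogram with a log axis), with dotted lines at -1 and 1. Drd1 at 4.95 lies in the far right tail and Adra1b at 1.74 beyond the right line, and the other 4 lie between the lines.

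Per length of exon, Drd1 led in AC with 41.5 CPM per kilobase, followed by Adrb1 with 8.48, Adra1b with 6.68 and Adra1a with 3.07. The length is that of all annotated exons of a gene together and can exceed that of the transcript present. Levels of different genes therefore compare only roughly. In CA3, Adrb1 with 7.35 came before Adra1a with 0.41. In CA1, Adrb1 with 17.4 came before Drd1 with 9.58 and Adra1a with 0.66. The order in CA1 rests on N2X, without which Drd1 stood at 26.3 and Adrb1 at 13.7. For a rough scale, Gnas, which encodes the alpha subunit of Gs and was read in every cell, had 136, 137 and 140 CPM per kilobase in AC, CA3 and CA1. Its annotated exons cover 11186 bases, against 3628 for Drd1, so its level may be understated.

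**Figure D4:**
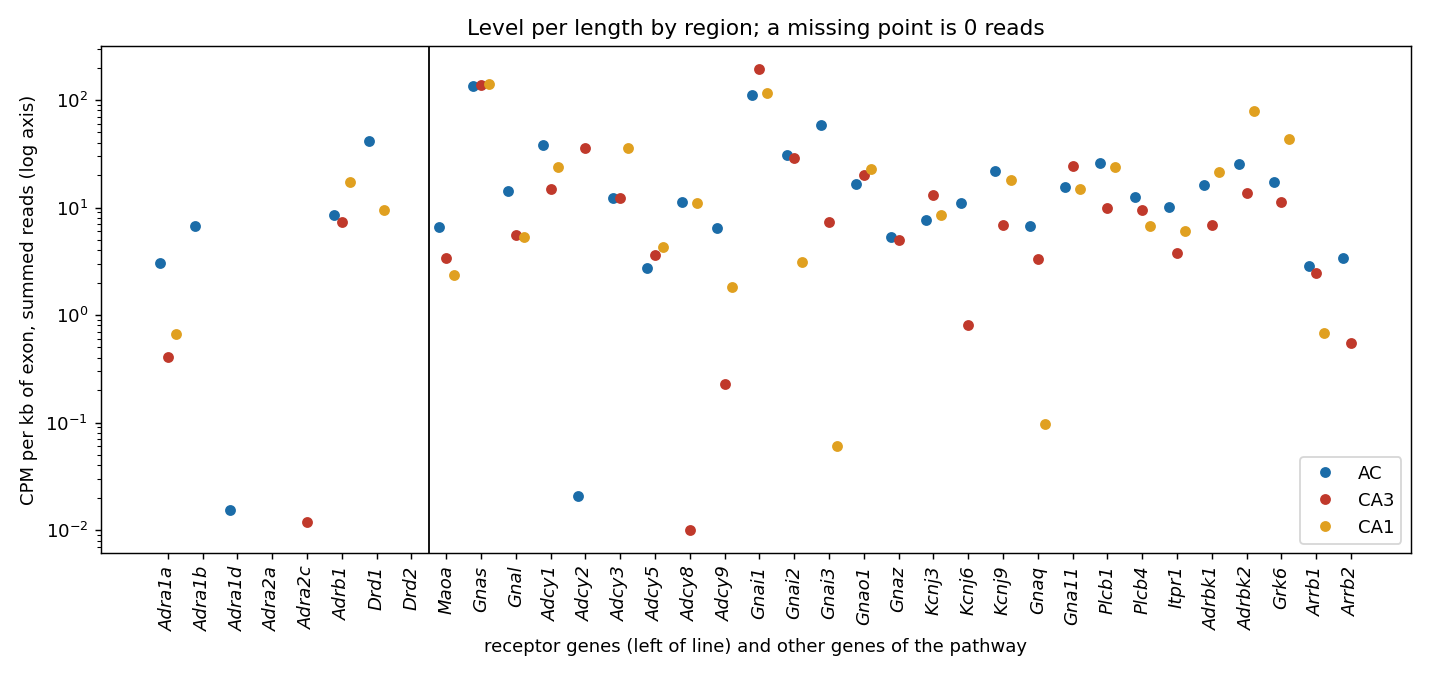
Summed level in CPM per kilobase of exon (log axis) by region (colour) of the receptor genes, left of the line, and of signalling genes read in at least 5 cells, right of it. A missing point is 0 reads. Among the receptors Drd1 is the highest point in AC (41.5) and Adrb1 in CA3 (7.35) and, with N2X included, in CA1 (17.4).

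The genes that make and take up the transmitters had few or no reads. Th, Ddc, Dbh and Pnmt, the enzymes of catecholamine synthesis, and Slc6a2, Slc6a3 and Slc22a3, which carry out uptake, had 0 reads in all 26 cells. Slc18a1, a vesicular monoamine transporter, had 265 reads in 1 AC cell, and Slc18a2, the neuronal form, had 49 reads over 2 AC cells and 13 over 2 CA3 cells. These genes were named although they were read in fewer than 5 cells, which was chosen after their values were seen. Maoa, a monoamine oxidase, was read in 3 AC, 3 CA3 and 1 CA1 cells, and Maob in none. Of the further receptor genes, Adrb3 had 25 reads in AC cell N8, Drd5, the other Gs-coupled dopamine receptor, had 153 reads in CA3 cell N31, and Adra2b, Drd3 and Drd4 had 0.

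Genes that act downstream of the receptors were measured far more often and differed in both directions between AC and CA3. Of 51 genes of catecholamine handling and signalling other than the 8 receptors, 37 had a read in AC or CA3. Of these, 9 (24.3%) were at least 1 higher in AC and 7 (18.9%) at least 1 higher in CA3. The median difference was 0.39, or 1.26 relative to the shift, which adds the same amount to every gene whatever its reads. Over all genes with a read the shares were 13.6% and 32.8%. Of the differences named next, that of Adcy2 exceeded the SD over cells of both regions, and each of the others was less than the SD of at least 1 region. In the Gs arm, 4 of 10 genes were higher in AC and 2 in CA3. Gnal, the alpha subunit that couples Drd1 in striatum, was 2.80 higher in AC, with 159 CPM against 62.0 CPM in CA3, of which N39 held 58.2%. The adenylyl cyclase gene Adcy1 was 2.41 higher in AC (482 against 186 CPM), and Adcy8 was 3.54 higher in AC, with 3153 reads in 4 AC cells against 4 reads in 1 CA3 cell. Adcy2 went the other way, at -5.39, with 3 reads in 1 AC cell against 7293 reads in 8 of 13 CA3 cells (149 CPM). In the Gi arm, 2 of 8 genes were higher in AC and 3 in CA3. Gnai3 was 4.71 higher in AC (192 against 24.2 CPM) and Gnai1 was 1.54 lower (348 against 610 CPM), both encoding inhibitory alpha subunits. In the Gq arm, 2 of 8 genes were higher in AC, namely the phospholipase gene Plcb1 by 2.04 (287 against 110 CPM) and the calcium release channel gene Itpr1 by 2.85 (186 against 69.0 CPM). Gna11, a Gq-type alpha subunit, was 3.42 higher in CA3, with reads in 11 of 13 CA3 cells and 4 of 10 AC cells. Of 7 receptor kinase and arrestin genes, Adrbk1, the kinase first named for the beta-type receptor, was 2.86 higher in AC (72.5 against 30.8 CPM), and its sign turned over all labelled cells, to -0.26. Over the labelled cells with an Npy read, scaled by library size, Adrbk1 was 1.37 and Plcb1 1.29 higher in AC, Gnal was 1.67 higher, and Gnai1 was at -3.43. Gnas, at -0.13 between AC and CA3 in the 26 cells, was at -2.83 over those cells.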

How the data were processed

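The authors deposited raw read counts per gene symbol, 1 column per cell. Per the study's methods, Trimmomatic and Flexbar did the trimming, STAR the alignment (GRCm38) and HTSeq the counting, whereas the submitters' processing notes name featureCounts. Ensembl 86 gave the symbols, and where a symbol stood for several identifiers their counts had been averaged. No normalization had been applied.

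Size factors came from scran 1.30.0 (computeSumFactors, pools of 10 and 20, R 4.3.3) over the 26 cells. Levels were log2(count / factor + 1). A difference of at least 1 was a rule of size, not a test. No p-value was computed, because a region is 1 sample. Intervals were 95% exact Poisson (reads) and Clopper-Pearson (shares), with 3 reads as the limit for a count of 0. Coordinates came from GENCODE vM21 (GRCm38) and promoters from RefSeq. Genes named were the 8 receptors, genes of the signalling list read in at least 5 cells, and the 3 genes most like any receptor read in at least 8. The gene lists and members were chosen with earlier results of these data known. Cells N4 and N4X had nearly the same counts (r = 0.997 of log2(CPM + 1), at most 0.732 in other pairs of a region), and only N4 was used, or their sum as 1 cell with all labelled cells. The script was tested on simulated data. Alternatives used edgeR 4.0.16 and DESeq2 1.42.0 for size factors only. A few genes of the lists are counted but not reported here by name.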

Additional observations from a re-analysis of the deposited data

Results flagged for a closer look

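Adra1d had a log2 level of 0.64 in AC cell N8 and 0 in the other 9 AC cells, so the gap to the next cell was the whole range (a ratio of 1.0). It rests on 1 read. By this measure chance sets apart about 1 in 20 groups of normally distributed values. That rate does not apply here, since any gene read in 1 AC cell only has a ratio of 1.0.

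Receptor reads were also found in AC columns outside the 26 cells. Adra1a had 507 reads in N47, and Adrb1 had 3485 in N48, 1666 in N47, 1006 in N51 and 72 in N45. The counts in N47, N48 and N51 exceed the 615 reads of the highest of the 26 cells. N47, N48 and N51 had only 1719, 1814 and 1565 genes read, fewer than any of the 26, and N45 had 6209. Npy was read in all 4 (1477 to 4688 reads), Gad1 had 0 reads in N48, and the pyramidal cell marker Slc17a7 had 3797 reads in N51. The astrocyte markers Aqp4 and Gja1 had 0 reads in all 4. The part of these differences in the Adrb1 reads was not tested.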

How the results depend on the processing

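Over the other settings, those that left out single cells apart, the AC minus CA3 difference ran from 2.58 to 6.61 for Drd1, 0.92 to 2.40 for Adra1b, 0.46 to 1.14 for Adra1a and 0.46 to 2.34 for Adrb1, and those of Adra2a and Drd2 are 0 under any setting. Labelled cells with an Npy read, and sums without single cells, were chosen after seeing the data. With a pseudocount of 0.1 the Adra1d difference was 0.27 and 1 receptor gene was at least 1 higher in AC than in CA1. With all labelled cells, N4 and N4X summed and library-size scaling, which differ from the main values in cells and scale at once, 0 were higher in AC and 2 in CA1. With a pseudocount of 10, 4 of the signalling genes were higher in CA3.

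As single cells were left out, the AC minus CA3 difference ran from -0.18 to 1.24 for Adra1a, 0.96 to 1.93 for Adra1b, 0 to 0.07 for Adra1d, -0.13 to 0 for Adra2c, 0.26 to 1.16 for Adrb1 and 4.22 to 5.50 for Drd1, and stayed at 0 for Adra2a and Drd2. Receptor genes at least 1 higher numbered 1 to 3 in AC and 0 in CA3 (1 without N3X or N4), 0 to 3 in AC and 1 to 2 in CA1 for that pair of regions, and 2 to 3 in CA1 and 0 in CA3. AC against CA1 gave 0 without N4, 1 without N3X, N42, N44, N5, N8, N1 or N2X, and 3 without N6, and CA1 gave 2 over AC without N46, N1 or N2X. Signalling genes numbered 9 to 12 higher in AC and 6 to 10 in CA3. Pairs with a read numbered 13 to 17, 10 to 12 and 3 to 5 in AC, CA3 and CA1 (3 without N6).

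No paired analysis was possible because the labels give cells no replicate numbers and name no mouse. Depth limits what 0 reads show, most in CA1 with 5034558 reads in all. Causes of these changes were not tested.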

Other observations

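Beside Drd1, 7 symbols had reads in at least 5 of the 10 AC cells but none in any of the 13 CA3 cells. They were Cad, a pyrimidine synthesis enzyme, Fam46a, Klhl21, Mgat4c, a glycosyltransferase, Nup155, a nucleoporin, Pan2, a deadenylase subunit, and Scamp2, a vesicle carrier protein, and were chosen after their values were seen. Each was read in 5 AC cells, with 856 reads (Nup155) to 6939 reads (Fam46a) over AC, against 5129 for Drd1.

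In 6 columns outside the 26 cells, at least 3 of 6 astrocyte markers were read at a summed level of 10150 to 20270 CPM. Adrb1 had 3 reads (13.8 CPM) in 1 of them, from CA3, and 0 in the other 5, whose totals were 89297 to 331299 reads. The 9 CA3 cells of the 26 with an Adrb1 read had a median of 14.99 CPM. At totals this low, 0 reads set only a loose limit on the level.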
